A study of Mus musculus with 4 samples.

Results

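The Hox genes encode homeodomain transcription factors and lie in 4 clusters of the mouse genome, Hoxa to Hoxd. Within a cluster all genes are read in the same direction, which runs from the posterior to the anterior end. Each gene carries a paralogue number, from group 13 at the posterior end to group 1 at the anterior end. The members were the 39 protein-coding genes of GENCODE M21 whose symbol is Hoxa, Hoxb, Hoxc or Hoxd and a number, out of 21755 protein-coding genes. CTCF peaks were taken where the summit, the point of highest signal, lay inside a cluster or within 50 kb of its ends. This gave 42 of the 90278 peaks of the list, 30 inside the clusters and 12 in the flanks.

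The data are CTCF chromatin immunoprecipitation with sequencing from the hippocampus layer of adult male mice, 2 months old, of strain B6CASTF1/J, which are F1 hybrids of the C57BL/6J and CAST/EiJ strains. All 4 libraries are of this single condition, with no genotype or treatment contrast. Each of the 2 biological replicates pools 7 tissue samples and was made into 2 technical libraries that share 1 alignment, so values exist per replicate and not per animal or library. Alleles of the parental strains cannot be told apart in the peak lists, and whole tissue mixes all its cell types.

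CTCF is a zinc-finger protein that binds an asymmetric DNA motif, can halt loop extrusion by cohesin, and marks many borders of chromatin domains. In embryos the Hox clusters are opened progressively from the anterior to the posterior side, and CTCF sites between Hox genes are known to separate active from Polycomb-repressed genes. The forebrain, from which the hippocampus derives, lies anterior to the domains in which Hox genes act in the embryo. With 1 condition there is no group comparison and no test. Counts and values are set beside the same measure over all genes, intervals or peaks. The authors' caller gave each peak a signal on an unstated scale, used here only to rank and describe peaks within the list. The signals of replicate 1 and replicate 2 are those of the peaks assigned to each pooled peak.

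The strongest peak of every cluster lay just anterior to the group 9 gene, and 3 of these 4 sites shared letters beside the core that are rare in the list. The 12-letter CTCF core motif was looked for on each strand up to 50 bp from the summit. The 4 sites are shown with 2 further Hox sites that carry the same letters, because the shared run is visible only in the bases themselves. Each line is read on the motif strand, 5′ to 3′, from the GRCm38 reference (mm10), with the core in capitals, 6 bases before it and 12 after it.
Hoxa9 to Hoxa7 (chr6:52221797-52221826, minus strand): aaaattCCAGGAGATGGCagtgtggctcca
Hoxb9 to Hoxb8 (chr11:96278942-96278971, plus strand): cagtggCCGCTAGATGGCatccttgctcca
Hoxc9 to Hoxc8 (chr15:102987535-102987564, minus strand): gaaaagCCAGCAGAGATCccaggctgagcc
Hoxd9 to Hoxd8 (chr2:74702389-74702418, plus strand): atttggCCACTAGAGAGCgctgttgctcca
Hoxc11 to Hoxc10 (chr15:102966566-102966595, plus strand): aggcagCTGCTAGGTGGCgctgttactcca
Hoxd13 to Hoxd12 (chr2:74673166-74673195, minus strand): aaacgcCCAGGAGATGGCgagcgtgctcca

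The letters CTCCA stood at bases 8 to 12 after the core in 5 of the 32 Hox sites, flanks included, that match the core with at most 2 mismatches. Over the whole list, 0.438% of 68307 such matches carried these letters at that place. The letters were picked after the Hox sequences were seen, so the count is a description. The sites of Hoxa9 to Hoxa7 and Hoxd13 to Hoxd12 had the same core in all 12 of 12 bases, and 16 of the 30 bases around it were identical. The Hoxc9 to Hoxc8 site lacked the letters. Its best match had 2 mismatches and lay 36.5 bp from the summit, while the matches of the other three lay 2.5 to 10.5 bp away.

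A further likeness concerned the anterior side of the clusters, where Hoxa and Hoxb each had a peak between groups 5 and 4. These sites are printed with 15 bases on each side of the core because the likeness extends beyond it. They shared 18 of 30 surrounding bases and 9 of 12 core bases, against a median of 10 of 30 over the 496 pairs of Hox sites and a maximum of 19. That maximum was a pair of the Hoxb locus, and other pairs of that locus also shared 18. Among these, Hoxb13 to Hoxb9 with Hoxb6 to Hoxb5 shared only 5 of 12 core bases. The Hoxa and Hoxb pair was the most alike between clusters in these surrounding bases, and is shown because its count was among the highest. With the core counted in, Hoxa9 to Hoxa7 and Hoxd13 to Hoxd12 shared more. In Hoxd, which has no group 5 gene, the Hoxd8 to Hoxd4 site shared 15 of 30 surrounding bases with Hoxa5 to Hoxa4 and 12 with Hoxb5 to Hoxb4.
Hoxa5 to Hoxa4 (chr6:52197451-52197492, minus strand): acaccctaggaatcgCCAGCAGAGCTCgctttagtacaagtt
Hoxb5 to Hoxb4 (chr11:96311727-96311768, plus strand): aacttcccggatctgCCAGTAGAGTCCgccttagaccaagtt

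The sites upstream of the 3 group 5 genes are shown for their shared place at a promoter. They were less alike, with 14 or 15 of 30 surrounding bases identical in each pair.
Hoxa6 to Hoxa5 (chr6:52204644-52204685, minus strand): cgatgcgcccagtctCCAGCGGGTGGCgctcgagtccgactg
Hoxb6 to Hoxb5 (chr11:96303230-96303271, plus strand): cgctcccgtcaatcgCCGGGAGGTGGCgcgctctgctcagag
Hoxc6 to Hoxc5 (chr15:103013687-103013728, plus strand): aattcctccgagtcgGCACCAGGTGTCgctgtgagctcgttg

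The peak between Hoxa9 and Hoxa7 had a signal of 872.7, with 433.3 in replicate 1 and 443.5 in replicate 2, and 0.45% of the list was stronger. The peak between Hoxd9 and Hoxd8 had 819.9 (410.5 and 411.2), with 2.39% of the list above it. Between Hoxb9 and Hoxb8 the signal was 817.0 (394.6 and 427.3), with 2.57% stronger. All 3 were of like height and high in both replicates. The peak between Hoxc9 and Hoxc8 was lower, at 760.7 (384.5 and 378.1), with 6.63% of the list above it. Genes of groups 9 and 8 specify the trunk along the embryonic axis, and Hoxa has no group 8 gene. In every cluster the peak lay 2 to 3 kb from the start of the next anterior gene, at 3110 bp from Hoxa7, 2949 bp from Hoxb8, 3018 bp from Hoxc8 and 2225 bp from Hoxd8. All 4 were intergenic in the basic annotation. The comprehensive annotation has a longer Hoxa7 transcript whose start lay 33 bp from the Hoxa summit.

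These 4 peaks were the strongest of their cluster in each replicate's own list and at an IDR (irreproducible discovery rate, the authors' measure of agreement in rank) of 0.01. In the list made from pooled reads this held for Hoxc and Hoxd only. There the Hoxa9 to Hoxa7 and Hoxb9 to Hoxb8 peaks had an IDR of 0.134 and 0.126, above the threshold of 0.05. The strongest that remained were Hoxa7 to Hoxa6 (775.5) and Hoxb7 to Hoxb6 (645.0).

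**Figure D1:**
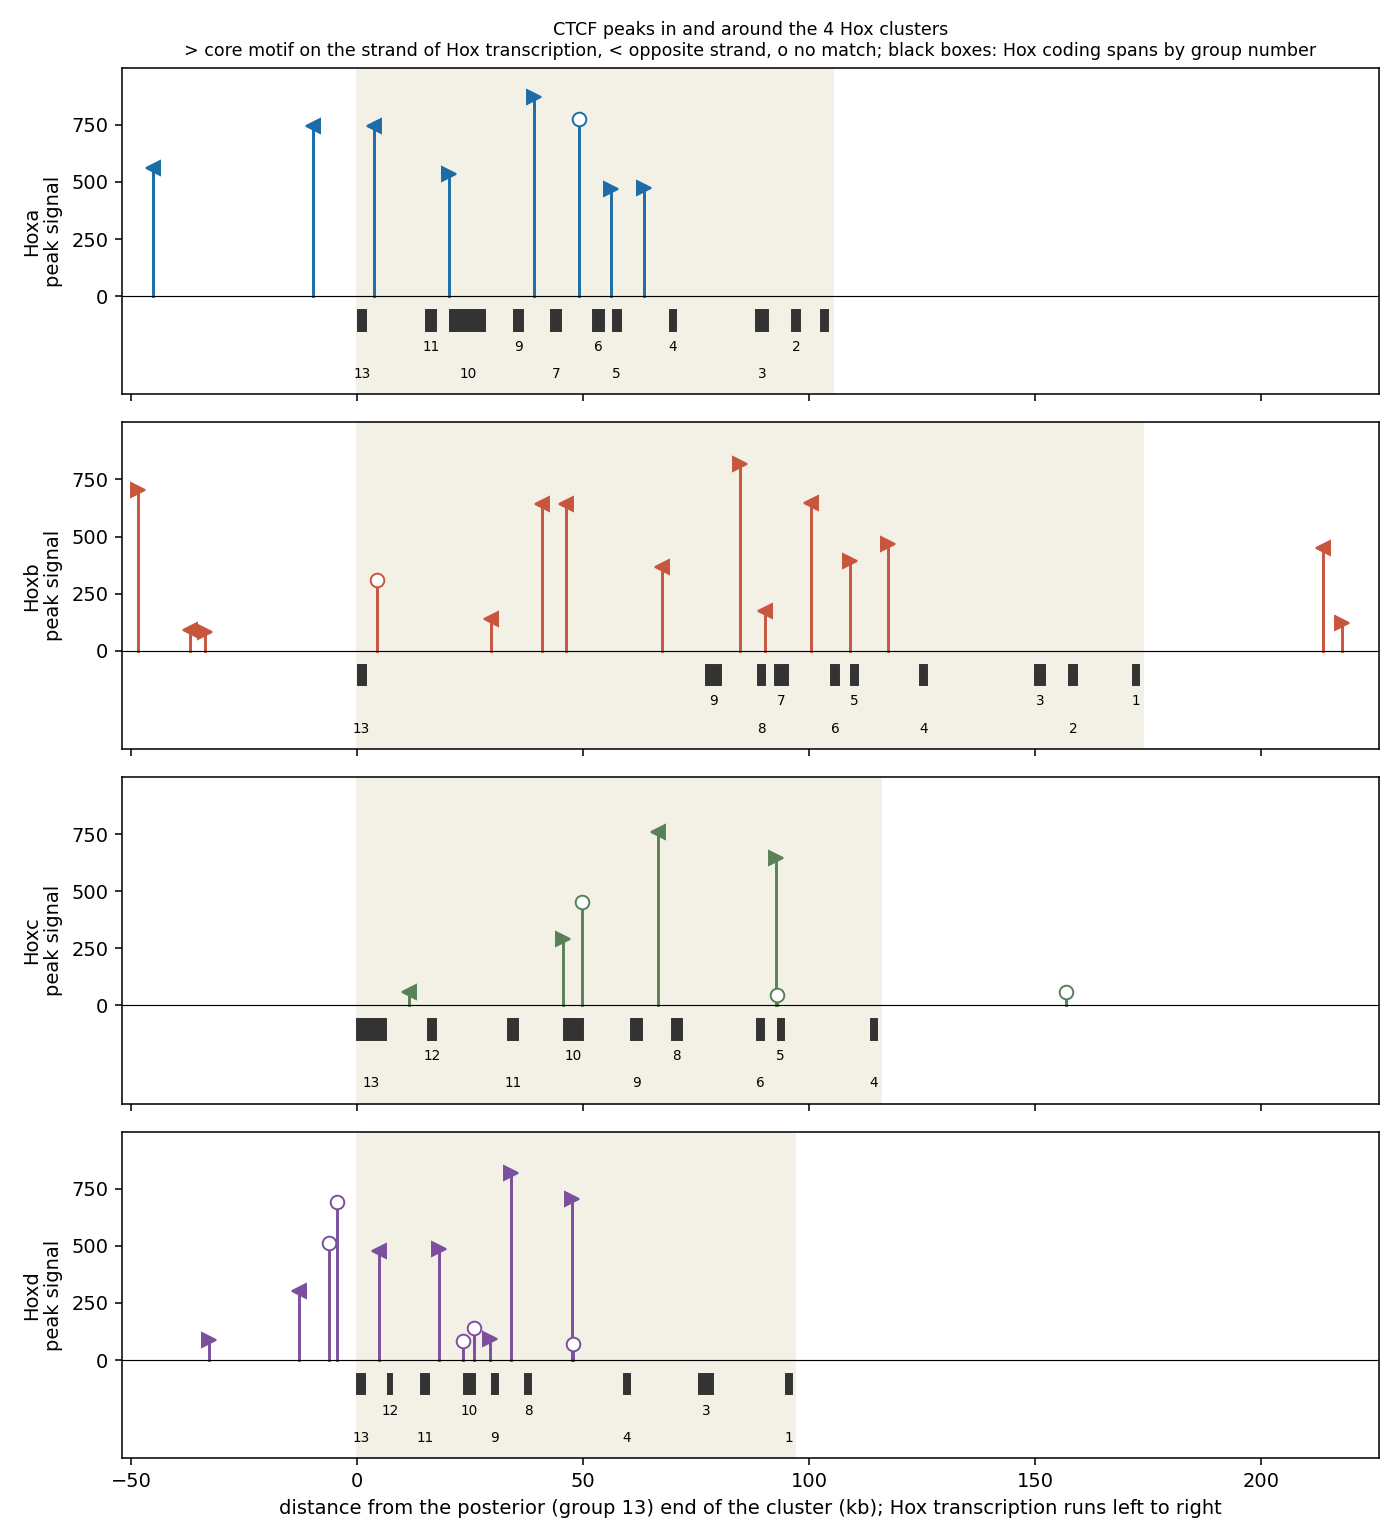
CTCF peaks in the 4 Hox clusters and 50 kb on each side. The horizontal axis is the distance in kb from the group 13 end, with Hox transcription running left to right; stem height is peak signal (scale not stated), shading is the cluster, and black boxes are coding spans with their group number. The tallest stem of each panel stands after box 9, and no stem stands inside the shading beyond box 4. Triangles pointing right are core matches (at most 2 mismatches) on the strand of transcription, those pointing left are on the opposite strand, and open circles had no match.

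The next strongest peaks also lay in the middle of the clusters, between groups 8 and 4. In Hoxa this was the peak between Hoxa7 and Hoxa6 (775.5, with 365.2 in replicate 1 and 410.7 in replicate 2), which lay 1386 bp from the start of a long Hoxa3 transcript. In Hoxb the peak between Hoxb7 and Hoxb6 had 645.0 (298.1 and 347.8). It could not be told from 2 peaks between Hoxb13 and Hoxb9, at 644.7 (324.8 and 325.5) and 642.4 (317.6 and 329.1), since the replicates differed by more than these peaks. In Hoxc the peak at the Hoxc5 start had 644.2 (328.3 and 317.0). In Hoxd the peak between Hoxd8 and Hoxd4 had 707.0 (338.7 and 369.1), in an intron of Hoxd3.

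The third peaks of Hoxa, Hoxc and Hoxd stood nearer the posterior side. Between Hoxa13 and Hoxa11 the signal was 746.6 (364.2 and 383.0), in an exon of the unclassified transcript 9530018H14Rik. Groups 13 to 11 pattern the limbs and the hind end of the body. In Hoxc a peak of 451.5 (220.9 and 231.8) lay in a coding exon of Hoxc10, and in Hoxd a peak of 488.0 (230.0 and 257.7) lay between Hoxd11 and Hoxd10. The posterior interval next to group 13 was unequal between clusters. Its strongest peak had 746.6 in Hoxa, 644.7 in Hoxb, 477.3 in Hoxd and 58.4 in Hoxc. The Hoxc value is the weakest of these, and that peak was in neither single-replicate list. The Hoxb interval is not alike, with 5 summits in 75315 bp, against 1 summit each in 4953 to 13187 bp in the other clusters. Its strongest peak lay 40.79 kb from the posterior end, and the Hoxb summit at 4.43 kb had 310.6.

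**Figure D2:**
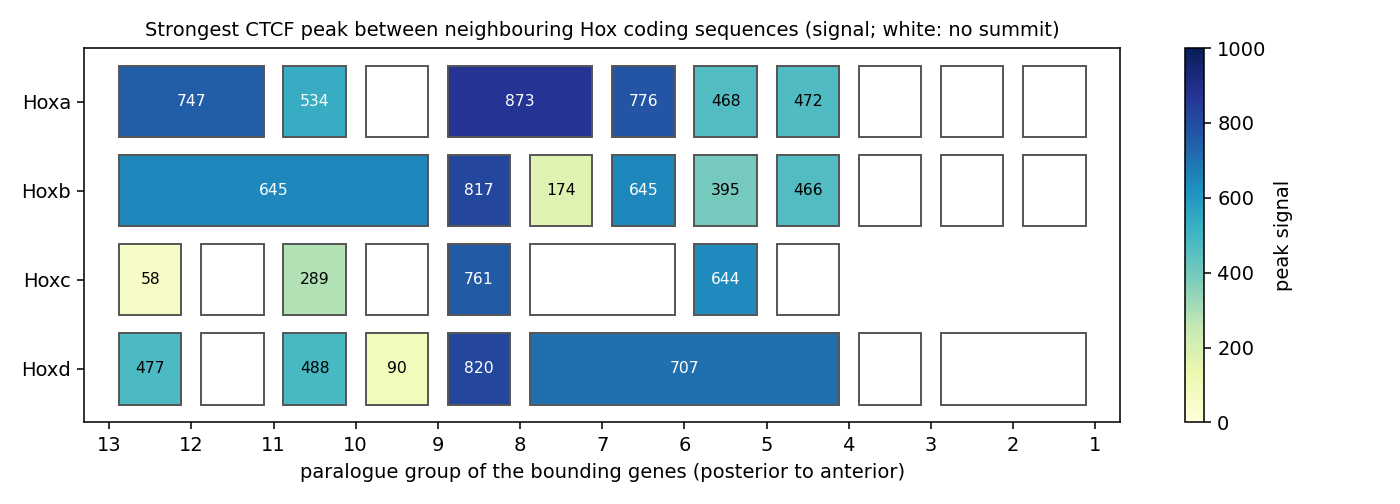
Strongest CTCF peak between neighbouring Hox coding sequences, in rows by cluster and ordered by paralogue group from posterior to anterior. Colour and number give peak signal (scale not stated), a wide box spans groups the cluster lacks, and white boxes held no summit. The interval that begins at group 9 is the darkest of each row (760.7 to 872.7 before rounding), and all intervals anterior to group 4 are white.

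No cluster had a summit from the coding sequence of its group 4 gene to its anterior end. This stretch measured 36.1 kb in Hoxa, 49.5 kb in Hoxb, 2.1 kb in Hoxc, which ends at group 4, and 37.9 kb in Hoxd, 125.6 kb in all. Genes of groups 1 to 4 pattern the hindbrain and neck. The count was 0 in each of 5 lists, namely the between-replicate list, its IDR 0.01 subset, both single-replicate lists and the pooled-read list. The remaining 366.2 kb on the posterior side held all 30 summits, or 8.19 per 100 kb. The boundary at group 4 was set after the peaks were seen.

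Below the threshold, the ranked list held 3, 6, 3 and 4 further peaks inside Hoxa, Hoxb, Hoxc and Hoxd. Only 1 of those in Hoxb and 1 in Hoxd lay in the anterior stretch, and the highest signal of all of them was 66.0. The distance from the last summit inside to the next summit beyond the anterior end was 142.9 kb in Hoxa, 96.2 kb in Hoxb, 63.9 kb in Hoxc and 248.4 kb in Hoxd. The median distance between adjacent summits of the list was 10.69 kb. The 4 distances contain the empty stretches, so they restate that observation. On the posterior side the distances were 13.6, 38.1, 125.0 and 9.4 kb in the same order, so only Hoxc was far from a neighbour there.

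Of the 39 members, 7 (17.9%) had a summit within 1 kb of a transcription start site (TSS) in the basic annotation, against 38.0% of protein-coding genes. These 7 were all 3 group 5 genes, all 3 group 10 genes and Hoxd9. The summit at Hoxa5 lay 82 bp from the TSS with a signal of 468.5 (225.3 in replicate 1 and 246.9 in replicate 2). That at Hoxb5 lay 268 bp away with 394.8 (170.9 and 224.4), and that at Hoxc5 lay 130 bp away with 644.2. Group 5 genes act at the neck and upper trunk, and Hoxd has no group 5 gene.

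The group 10 genes, which specify the lumbar region, had more unequal peaks, from 84.7 to 534.3 against 394.8 to 644.2 in group 5. Hoxa10 had a summit at 302 bp with 534.3 (254.4 and 279.6), in an untranslated region. Hoxc10 had one at 204 bp with 289.0 (135.8 and 151.7). Hoxd10 had one at 141 bp with 84.7 (34.5 and 49.1), and this peak was absent from the list of replicate 2. Hoxd9 had a weak peak at 30 bp with 90.4 (41.8 and 49.5), while Hoxa9, Hoxb9 and Hoxc9 had none within 1 kb. Group 10 order by signal was the same in both replicates.

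In the basic annotation, members of the other groups had no summit within 1 kb. The comprehensive annotation added Hoxa7, for 8 members in all. Within 5 kb, 24 of all 39 members (61.5%) had a summit in the basic annotation, against 59.6% of protein-coding genes. The lower share of Hox genes at 1 kb was thus not seen at 5 kb. The median distance to the nearest summit was 4.14 kb over the members and 2.68 kb over all protein-coding genes. Distances were 1.86 to 4.14 kb for group 12, 1.91 to 3.02 kb for group 8 and 1.99 to 3.11 kb for group 7. For the 4 genes of group 4 the distances were 5.04 to 6.52 kb. The Hoxc4 value was measured from a long transcript that starts at position 103018934, while its coding sequence begins after 103034722. The summits nearest to Hoxc4 and Hoxd4 were the weak ones of 47.1 and 68.4. In group 3 the clusters differed, with 1.39 kb for Hoxa3, 4.0 kb for Hoxd3 and 11.58 kb for Hoxb3. The Hoxa3 and Hoxd3 values come from long transcripts that start outside the anterior stretch. Hoxa2 at 32.64 kb, Hoxb2 at 39.88 kb, Hoxb1 at 42.15 kb and Hoxd1 at 46.82 kb were far from any summit.

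**Figure D3:**
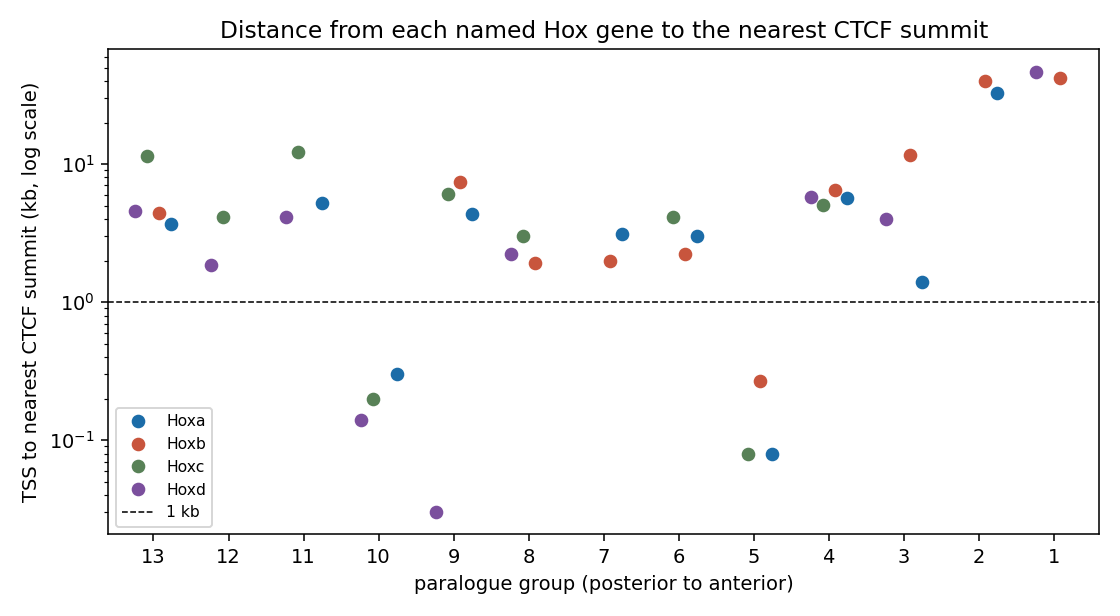
Distance from the TSS of each of the 38 named Hox genes to the nearest CTCF summit (kb, log scale) by paralogue group, posterior to anterior, coloured by cluster. Groups 10 and 5 lie whole below the dashed line at 1 kb, joined only by Hoxd9 at 0.03 kb, and groups 2 and 1 lie above 30 kb (32.64 to 46.82).

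Of the 35 intervals between adjacent Hox coding sequences, 21 held a summit. The short intervals were nearly all occupied. Of the 8 under 5 kb, 7 held one, against 30.9% of 3926 such intervals elsewhere between protein-coding genes. The empty one was at the anterior end of Hoxa. The strongest peak of each occupied one ran from 90.4 (Hoxd10 to Hoxd9) to 644.2 (Hoxc6 to Hoxc5). Of the 24 intervals of 5 to 20 kb, 12 held a summit, against 56.2% of 6506 elsewhere. The empty ones included Hoxc12 to Hoxc11, Hoxd12 to Hoxd11, Hoxa10 to Hoxa9, Hoxc10 to Hoxc9, Hoxc8 to Hoxc6 and Hoxc5 to Hoxc4. The longest, Hoxb13 to Hoxb9 with 75315 bp, held 5 summits from 139.4 to 644.7. Intervals of a cluster are neighbours, so they are not independent.

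The clusters differed more in their flanks than in their interior. Hoxa had 6 summits in 105.3 kb, Hoxb 10 in 173.9 kb, Hoxc 6 in 115.8 kb and Hoxd 8 in 96.8 kb, or 5.7, 5.75, 5.18 and 8.26 per 100 kb. The Hoxc and Hoxd counts each include a weak summit (47.1 and 68.4) of a peak that overlaps a stronger one. With overlapping peaks reduced to the strongest, the counts were 5 in Hoxc and 7 in Hoxd. Windows of 100 kb across the genome had a median of 2 summits, with 9 at the 90th percentile. The flanks held 2, 5, 1 and 4 summits, 3.0 per 100 kb against 6.1 inside, a ratio of 2.03. In the list of replicate 1 alone the Hoxa flanks held 4, and in that of replicate 2 alone the Hoxc flanks held 0. The Hoxa and Hoxd flank summits all lay on the posterior side, where Evx1 and Evx2, homeobox genes linked to the clusters, are found. The strongest were 744.1 (365.6 and 380.7), 9824 bp from the start of Hoxa13, and 691.9 (327.6 and 363.4), 4547 bp from Hoxd13 and between it and Evx2. In the Hoxb flanks the strongest were 703.7 (349.6 and 356.1) in an intron of Ttll6, a tubulin-modifying enzyme, and 449.4 (205.4 and 245.2) on the anterior side. Hoxc had none on the posterior side and a weak peak of 60.6 (25.5 and 33.6) on the anterior side, which was in neither single-replicate list.

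Core motifs inside the clusters were poorer matches than in the list as a whole. With at most 1 mismatch, 7 of the 30 summits had a core within 50 bp (23.3%), against 50.3% of all peaks. Hoxa had 3 of 6, Hoxb 2 of 10, Hoxd 2 of 8 and Hoxc 0 of 6. Among the 18 peaks with a signal over 400, 6 had such a core, against 67.2% of peaks of that strength in the list. With at most 2 mismatches the count rose to 23 of 30, against 75.7% of all peaks, and 8.2% of windows 1 kb from a summit also matched. A weight matrix of 20 positions trained on other peaks matched 4 of 30, against 45.0%. The strong Hoxa7 to Hoxa6 peak (775.5) and the Hoxc10 exon peak (451.5) had no match with up to 2 mismatches. The 101 bp around the Hox summits were richer in G and C, with a median of 57.4% and 6 CpG against 49.5% and 1 over all peaks, and the part of base composition in the motif counts was not tested.

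Motif direction switched at a single place along Hoxa and Hoxd, and back and forth along Hoxb and Hoxc, when up to 2 mismatches were allowed. With up to 2 mismatches, 13 sites inside were on the strand of Hox transcription and 10 on the opposite strand. All 7 matched sites between group 13 and its neighbour were on the opposite strand (Hoxa 1, Hoxb 4, Hoxc 1, Hoxd 1). The Hoxb sites lay 29.7 to 67.45 kb from the posterior end, in an interval of 75315 bp, so they did not lie next to Hoxb13. The Hoxc site was the peak of 58.4, which was in neither single-replicate list nor in the pooled-read list. Of the 16 other matched sites, 13 were on the same strand as transcription and 3 were not. In Hoxa and Hoxd, each matched site from group 11 onward was on the strand of transcription, after 1 site on the opposite strand. The 3 exceptions were Hoxb8 to Hoxb7, Hoxb7 to Hoxb6 and Hoxc9 to Hoxc8, the last being the match printed above, 36.5 bp from its summit. Sites that followed the division also included distant matches, at 34.5 bp in Hoxd13 to Hoxd12 and 22.5 bp in Hoxc6 to Hoxc5. With at most 1 mismatch the 2 sites on the opposite strand were 1 in Hoxb13 to Hoxb9 and that of Hoxd13 to Hoxd12. The 5 others followed transcription (3 in the pooled-read list). At that limit Hoxa had no site on the opposite strand and Hoxc had no match, so neither could show a change. The division at group 13 was made after the strands were seen.

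The peaks inside the clusters were mostly strong, and few differed widely between replicates. Their median signal was 470.2 (47.1 to 872.7) against 165.3 over the list, and 7 of 30 exceeded 700, against 11.4% of all peaks. The flank peaks had a median of 375.7 (60.6 to 744.1). Over the 30, the median was 224.5 in replicate 1 and 244.9 in replicate 2. The log2 ratio of replicate 2 to replicate 1, less the median of the list, had a median of 0.03 and ran from -0.46 to 0.42. Its SD was 0.2 inside the clusters and 0.41 over the list, whose median signal was lower. The SD was not compared among peaks of like signal. In 23 of 30 peaks the ratio lay within 0.25 of 0. Among the widest were those at Hoxc5 (47.1), between Hoxb8 and Hoxb7 (174.1, above the list median) and at Hoxd10 (84.7). The peak between Hoxb6 and Hoxb5 (394.8) also lay outside this limit, at 0.3. Overlapping peaks were found in both single-replicate lists for 28 of 30 (93.3%), against 75.2% of the list. Among the peaks with a signal over 400 this held for 18 of 18, against 99.2% of such peaks in the list, so strong Hox peaks were close to the level of other strong peaks.

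**Figure D4:**
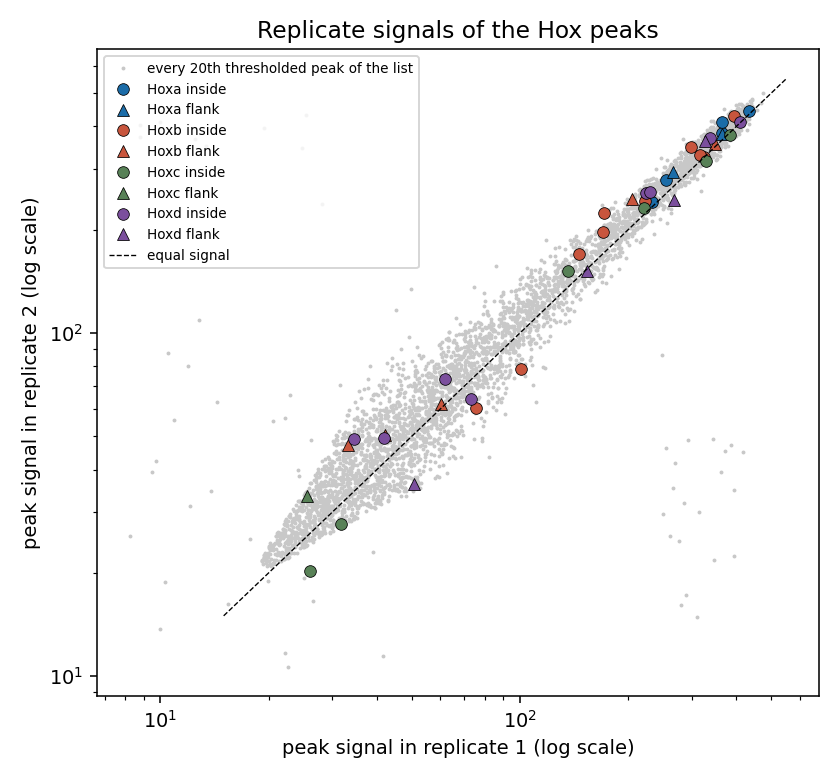
Peak signal in replicate 1 against replicate 2 (both log scale, unit not stated) for the 42 Hox peaks, coloured by cluster, with circles inside and triangles in the flanks. Grey points are every 20th peak of the list, and the dashed line marks equal signal. The strong Hox peaks lie close to the line, up to 433.3 and 443.5, and the weak ones scatter more widely.

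Cofactors of Hox proteins, ParaHox genes and the linked Evx genes were looked at in the same way. Of the 9 TALE homeodomain cofactors, which bind DNA together with Hox proteins, 3 had a summit at most 1 kb from a TSS, against the same 38.0% of all genes. These were Meis3 (476.3 at 195 bp), Pknox2 (456.5 at 108 bp) and Pbx4 (129.8 at 236 bp). None of the 6 ParaHox genes, the ancient relatives of the clusters, had one, although Cdx2 had a summit of 522.3 at 7927 bp. Neither Evx1 nor Evx2 had one. Their nearest summits were at 7437 bp (559.3) and 2443 bp (512.0), and both belong to the Hox flanks described above.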

How the data were processed

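Per the labels, the 4 libraries are CTCF ChIP-seq of tissue pools on mm10. The authors deposited IDR peak lists of each replicate, of pooled reads and of the pair of replicates. For the aligner, the peak caller and their versions nothing is stated (not given in the sources used here), and the control was not used here. The deposited peak signal has no stated scale. The deposited IDR score runs from 540 to 1000, and the ranked lists the authors deposited give IDR as −log10. The depth in reads is unknown, and no interval could be given for a peak. The labels give no separate donors for the pools, so the spread between replicates may be partly technical. Of the first input peaks of the between-replicate ranked list, 78.1% had the coordinates of replicate 1 peaks, and 80.0% of the second those of replicate 2.

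Results rest on the list thresholded at an IDR of 0.05 between replicates, with 1-based coordinates. Genes and TSSs came from GENCODE M21 basic and sequences from the GRCm38.p6 reference of RefSeq, the assembly mm10 names, so CAST/EiJ bases were not read. Intervals ran between coding spans, and a summit within 1 kb of a TSS counted for that gene. The core motif was searched with at most 1 mismatch, and with at most 2 for direction. The weight matrix cutoff was passed by 1% of windows 1 kb away. The motif search was tested on simulated data. Named genes were members with a promoter summit, those bounding occupied intervals or differing within a group, the 3 strongest peaks per cluster and the strongest per flank, and the cofactor, ParaHox and Evx lists. Members and lists were chosen with earlier results of these data known. Of the 39 genes, 1 is not reported here by name. Alternatives were an IDR of 0.01, the other lists, other windows, flanks, mismatches and annotations. Tools were pysam 0.24.0, pandas 2.3.3, numpy 2.4.6 and matplotlib 3.10.9 under Python 3.11.15.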

Additional observations from a re-analysis of the deposited data

How the results depend on the processing

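Of 117 values recomputed, 97 stayed close to the original (counts within 1.5 times, other values within 1 SD or, for the share of peaks in both lists, its exact binomial interval), among them all counts inside each cluster and the number of occupied intervals. Flank counts moved with flank size. With 20 kb flanks they were 1 in Hoxa, 0 in Hoxb and 0 in Hoxc, and with 100 kb flanks 11 in Hoxb and 7 in Hoxc. The Hoxc flank summit was lost (0) at an IDR of 0.01 and in the pooled-read list. In single-replicate lists, which leave the other replicate out, the flank count was 2 to 4 in Hoxa, 0 to 1 in Hoxc, and the density ratio 1.81 to 2.62. The median signal there was 225.3 to 246.9, since each list has its own signal. Within 5 kb of a TSS, 24 members had a summit (61.5%, against 59.6% of all genes), so the difference at 1 kb did not hold there. Motif counts depended on the rule: on the strand of transcription they were 3 in the pooled-read list, 0 without mismatch, 13 with up to 2 mismatches and 3 by weight matrix, and on the opposite strand 0 without mismatch, 10 with up to 2 mismatches and 1 by weight matrix. The weight matrix and the reduction of overlapping peaks to the strongest were chosen after seeing the data. No paired analysis was possible because the study has a single group. Unknown depth limits all statements on weak peaks and on empty stretches.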
